A study of Homo sapiens with 9 samples.

Results

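The 10 genes described here encode the enzymes that write and remove DNA methylation and the core of the Polycomb repressive complex PRC2: DNMT1, UHRF1, DNMT3A, DNMT3B, TET1, TET2, TET3, EZH2, SUZ12 and EED. They were taken by gene symbol, whatever their values, from a table of 58676 genes, and all 10 had enough counts to be tested, among 15975 tested genes. The messenger RNA of OVCA433, an established cell line labelled ovarian serous adenocarcinoma, was sequenced after lentiviral delivery of a control vector, of shRNA hairpin #1 against MPZL3 or of hairpin #3 against MPZL3, with libraries A, B and C in each of the 3 groups. The control cells carried the genotype label WT and both hairpin groups the label MPZL3 knock-down. All transduced OVCA433 cells were selected with puromycin, and the study describes the libraries of a condition as biological replicates. MPZL3 is a predicted cell adhesion protein, and the 10 genes were examined as candidate agents of the loss of epithelial gene expression in knockdown cells. Protein, DNA methylation and histone marks are not analysed here, so every value below is a level of RNA.

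DNA methylation in mammals is placed on cytosines that precede a guanine (CpG). DNMT3A and DNMT3B methylate unmodified DNA, while DNMT1, guided by UHRF1 to newly copied DNA, restores methylation on the new strand after replication. TET1, TET2 and TET3 oxidize methylated cytosine as a step towards its removal. PRC2 methylates histone H3 on lysine 27 through its catalytic subunit EZH2, which is active only together with SUZ12 and EED, and both systems are known for keeping genes silent, including epithelial genes such as CDH1 in mesenchymal cells.

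Library totals were 16850854 to 23890191 counts. MPZL3 itself was at 19.51 ± 3.42 CPM (read counts relative to the library total after TMM adjustment in edgeR; SD, n = 3) with the control vector, 1.885 ± 0.0926 under hairpin #1 and 1.575 ± 0.514 under hairpin #3, and every one of the 6 knockdown libraries was under the lowest control library (pooled log2 fold change -3.49, SE 0.191, edgeR adjusted p = 6.87e-08). Of 12 ovarian carcinoma markers, PAX8, KRT7, KRT8 and KRT18 were present in every group and WT1 had no count in any library. MUC16 was at 3.18 ± 1.02 CPM in control and at 0 in all knockdown libraries. Of the 10 tested, 3 were called higher and 5 lower in the pooled comparison, beside 15.9% and 17% of tested genes. PAX8 (96.99 CPM in control, 199.9 under hairpin #1 and 207.3 under hairpin #3), SOX17 and MSLN were higher. EPCAM, CDH1, MUC16, KRT8 and KRT18 were lower. The summed level of the 12, which rested mainly on KRT7, KRT8 and KRT18, was 10320 to 12420 CPM in control, 5302 to 6801 CPM under hairpin #1 and 5297 to 5991 CPM under hairpin #3. The immune marker PTPRC averaged 0.4541 CPM in control, 0.4691 under hairpin #1 and 0.3425 under hairpin #3, and CD3E and CD68 averaged at most 0.03923 CPM in any group. Of 5 fibroblast markers, PDGFRB was at 0.5551 CPM in control, 13.8 under hairpin #1 and 16.82 under hairpin #3, while DCN had no count in any library, and the sum of the 5 was 1.941 to 2.533 CPM in control and 12.99 to 23.61 CPM in knockdown libraries. Of 3 endothelial markers, PECAM1 averaged at most 0.0938 CPM in any group. VWF was at 0.3877 CPM in control, 0.4215 under hairpin #1 and 0.5114 under hairpin #3, and CDH5 was at 0.09711, 2.292 and 3.704 CPM. The summed endothelial level rested mainly on VWF in control and on CDH5 in the knockdown groups. In bulk RNA, fewer cells of a kind and less RNA per cell cannot be told apart.

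Of the 10 genes, 4 hold a version of a short E2F motif at their promoters. E2F factors switch on S phase genes through sites of the form TTTCCCGC, TTTCGCGC, TTTGCCGC or TTTGGCGC, and these 4 versions were searched on both strands of 300-base RefSeq promoter windows (250 bases before to 50 after the start site, GRCh38.p14). A match was present in 4 of the 10 promoters, those of DNMT1, UHRF1, EZH2 and SUZ12, compared with 5.21% of 10573 promoters of tested genes and 3.33% of all 27305 promoters. It was also present in 10 of 17 promoters of a list of S phase and proliferation genes. The 30 bases around each match are shown because these 4 genes were also the most abundant members per kilobase, with the match in capitals, 5′ to 3′ on the strand of the gene.
DNMT1, chr19:10194937-10194966, minus strand, match beginning 2 bases before the start site: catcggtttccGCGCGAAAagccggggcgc
UHRF1, chr19:4909476-4909505, plus strand, match beginning 14 bases before the start site: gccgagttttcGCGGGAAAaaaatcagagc
EZH2, chr7:148884272-148884301, minus strand, match beginning 1 base after the start site: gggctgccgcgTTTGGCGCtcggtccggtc
SUZ12, chr17:31936807-31936836, plus strand, match beginning 189 bases before the start site: cgacccctaatTTTCCCGCgaattcagttc
Each of the 4 versions itself holds a CpG. The windows of the 10 members held 3 to 46 CpGs, with a median of 28 beside 26 over tested genes. The window with 3 belonged to DNMT3B, whose RefSeq entry starts inside the gene as annotated by GENCODE. The windows of DNMT1 and UHRF1 also lay wholly inside the annotated genes, so their matches are not at the GENCODE gene starts. A match is a description of the letters and was not examined for binding.

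Per kilobase of exon, UHRF1 was the most abundant member in control cells at 35.65 ± 5.52 CPM per kilobase (SD, n = 3), followed by DNMT1 at 27.85 ± 2.6, EZH2 at 12.69 ± 2.06 and SUZ12 at 11.37 ± 1.03. DNMT3A (6.325 ± 0.266), EED (5.925 ± 0.751) and TET3 (5.887 ± 1.13) came next, then DNMT3B (3.937 ± 0.323) and TET2 (2.295 ± 0.688), and TET1 was lowest at 0.2263 ± 0.0663. UHRF1 and DNMT1, the maintenance genes, were the 2 highest in each of the 9 libraries. The control ranges of EZH2 and SUZ12 overlapped, as did those of DNMT3A and EED and of EED and TET3, and the ranges of the other neighbours in this order did not overlap. TET1 rested on 29 to 96 counts per library, compared with 3781 to 6377 for DNMT1.

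**Figure D1:**
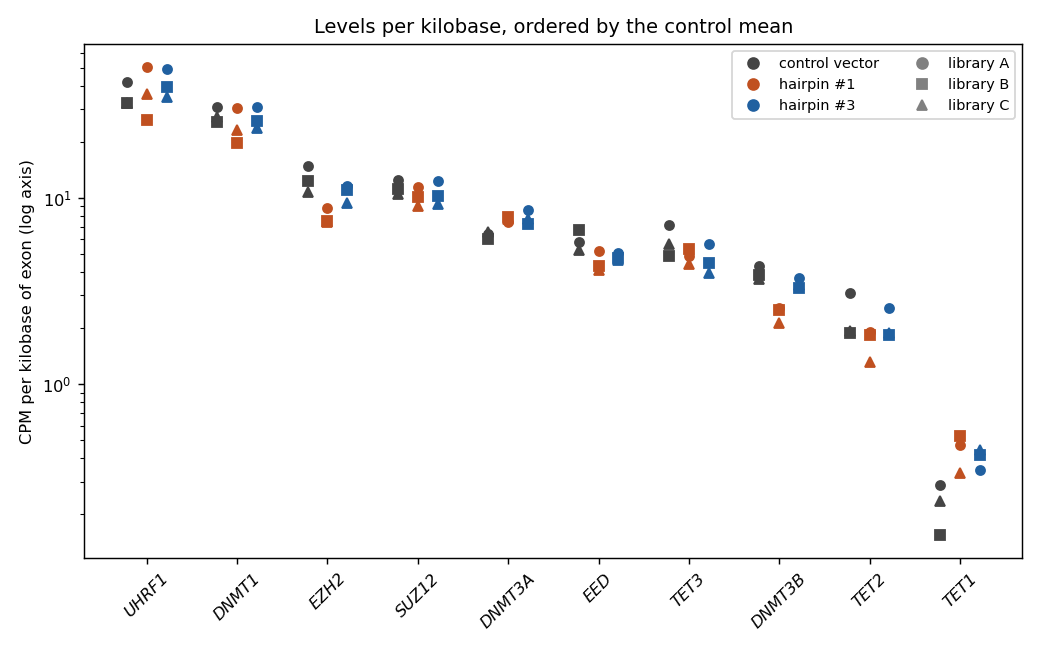
CPM per kilobase of exon of the 10 genes in each of the 9 libraries, on a log axis, ordered by the control mean; colours mark the groups and symbols the libraries A, B and C. UHRF1 and DNMT1 lie highest (19.64 to 50.25) and TET1 lowest (0.1554 to 0.5258) in all 9 libraries.

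With both hairpins taken as 1 knockdown arm of 6 libraries, 4 of the 10 genes changed at an adjusted p under 0.05, and 33% of all tested genes did so. DNMT3A and TET1 rose (2 of 10, with 15.9% of tested genes called higher) and EZH2 and EED fell (2 of 10, with 17% called lower). With hairpin #1 alone, 5 genes changed, where 37.8% of tested genes did (18% higher and 19.7% lower): DNMT3A and TET1 rose, and DNMT3B, EZH2 and EED fell. With hairpin #3 alone, only DNMT3A and TET1 passed, both higher, where 34.7% of tested genes passed (16.6% higher and 18.1% lower). These shares are near the background in every comparison with control, so the number of members that changed is not a result about them. No member reached a 2-fold change with an adjusted p under 0.05, whereas 14.7% of tested genes did so in the pooled comparison, 16.3% under hairpin #1 and 15.3% under hairpin #3. The median log2 fold change of the 10 genes was -0.20 pooled, -0.23 under hairpin #1 and -0.11 under hairpin #3, beside medians over all tested genes of 0.0045, 0.0009 and -0.0029. The comparisons of the 2 hairpins with control share the control libraries.

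**Figure D2:**
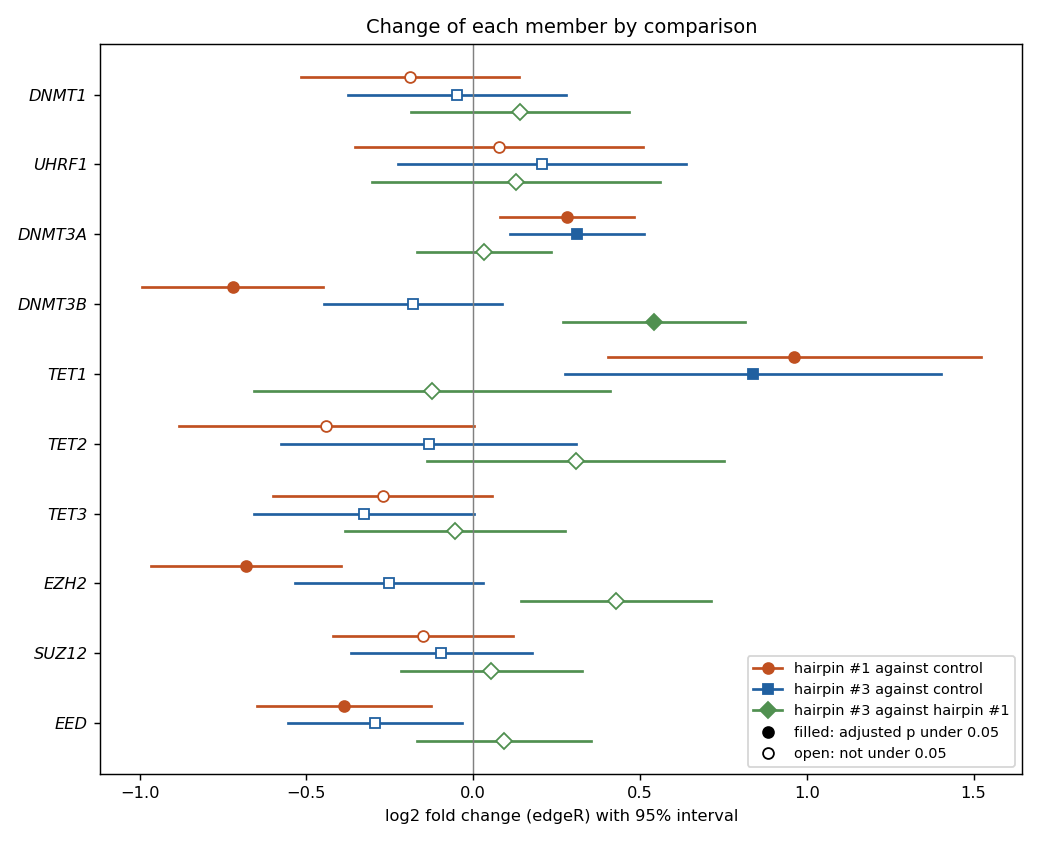
log2 fold change of each member in 3 comparisons, with its 95% interval from edgeR's quasi-likelihood fit; filled symbols passed an adjusted p under 0.05. DNMT3A and TET1 lie above 0 with both hairpins, DNMT3B and EZH2 lie lower under hairpin #1 than under hairpin #3, and the largest value is 0.96, for TET1 under hairpin #1.

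Of the 2 de novo methyltransferases, DNMT3A rose with both hairpins and DNMT3B fell under hairpin #1. DNMT3A (ENSG00000119772, chromosome 2, 25227855 to 25342590 on GRCh38) was at 76.8, 72.51 and 78.76 CPM in control libraries A, B and C, at 88.78, 95.44 and 92.78 under hairpin #1 and at 103.7, 86.91 and 92.47 under hairpin #3. All 6 knockdown libraries lay above all control libraries. The rise was 1.228-fold pooled (log2 0.30, SE 0.0816, adjusted p = 0.0152), and the separate values were log2 0.28 (adjusted p = 0.030) under hairpin #1 and 0.31 (adjusted p = 0.019) under hairpin #3. Between hairpins DNMT3A differed by 0.03 on the log2 scale (95% interval -0.17 to 0.23, adjusted p = 0.886). Over the 17 alternatives tried, DNMT3A passed in 15 pooled, 11 under hairpin #1 and 14 under hairpin #3. Only some of the fits that missed are named next. The calls rested on single libraries: without control B the pooled adjusted p was 0.0916 and that of hairpin #3 0.0936, without hairpin #3 A that of hairpin #3 was 0.0855, and that of hairpin #1 was 0.0581, 0.124 or 0.0524 without control A, B or C and 0.0832 or 0.0756 without hairpin #1 B or C.

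DNMT3B (ENSG00000088305, chromosome 20, 32762385 to 32809356) was at 19.85, 17.92 and 16.92 CPM in control, at 11.82, 11.55 and 9.818 under hairpin #1 and at 17.24, 15.2 and 15.83 under hairpin #3. The hairpin #1 libraries lay below all others, and the hairpin #3 libraries overlapped the control libraries through library A. DNMT3B fell 1.649-fold under hairpin #1 (log2 -0.72, SE 0.125, adjusted p = 0.000477), with an adjusted p of at most 0.00327 in all 17 alternatives tried. With hairpin #3 the log2 fold change was -0.18 (SE 0.124, adjusted p = 0.293). The pooled value of -0.43 did not pass (adjusted p = 0.077), and passed without hairpin #3 A (adjusted p = 0.0347). Averaged over the hairpins in a model with 3 separate groups it was -0.45 and passed (adjusted p = 0.00396). As a share of the summed CPM per kilobase of both de novo genes, DNMT3B made up 38.35% ± 2.27 in control (range 35.8% to 40.16%), 23.72% ± 2.07 under hairpin #1 (21.55% to 25.69%) and 30.71% ± 0.544 under hairpin #3 (30.14% to 31.22%). The 3 ranges of this share did not overlap, and the share was lowest under hairpin #1. This share was not tested.

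Neither gene of the maintenance pair passed the test. DNMT1 (ENSG00000130816, chromosome 19, 10133345 to 10231286) was at 300.8, 251.1 and 266.5 CPM in control, 298, 192.4 and 226.9 under hairpin #1 and 302.9, 254.5 and 233.4 under hairpin #3. The groups overlapped, and the A library was highest in each. The pooled change on the log2 scale was -0.12 (95% interval -0.42 to 0.19, adjusted p = 0.558). With hairpin #1 it was -0.19 (adjusted p = 0.356), and without hairpin #1 A it was -0.38 and passed (adjusted p = 0.0362). UHRF1 (ENSG00000276043, chromosome 19, 4903080 to 4962154) was at 216.2, 167 and 167.1 CPM in control, 258.5, 135.6 and 186.3 under hairpin #1 and 252.3, 203.2 and 179.2 under hairpin #3. Library A was again highest in each group, and the spread under hairpin #1 (193.5 ± 61.8 CPM) spanned the other groups. The pooled log2 fold change of UHRF1 was 0.14 (95% interval -0.26 to 0.54, adjusted p = 0.597).

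**Figure D3:**
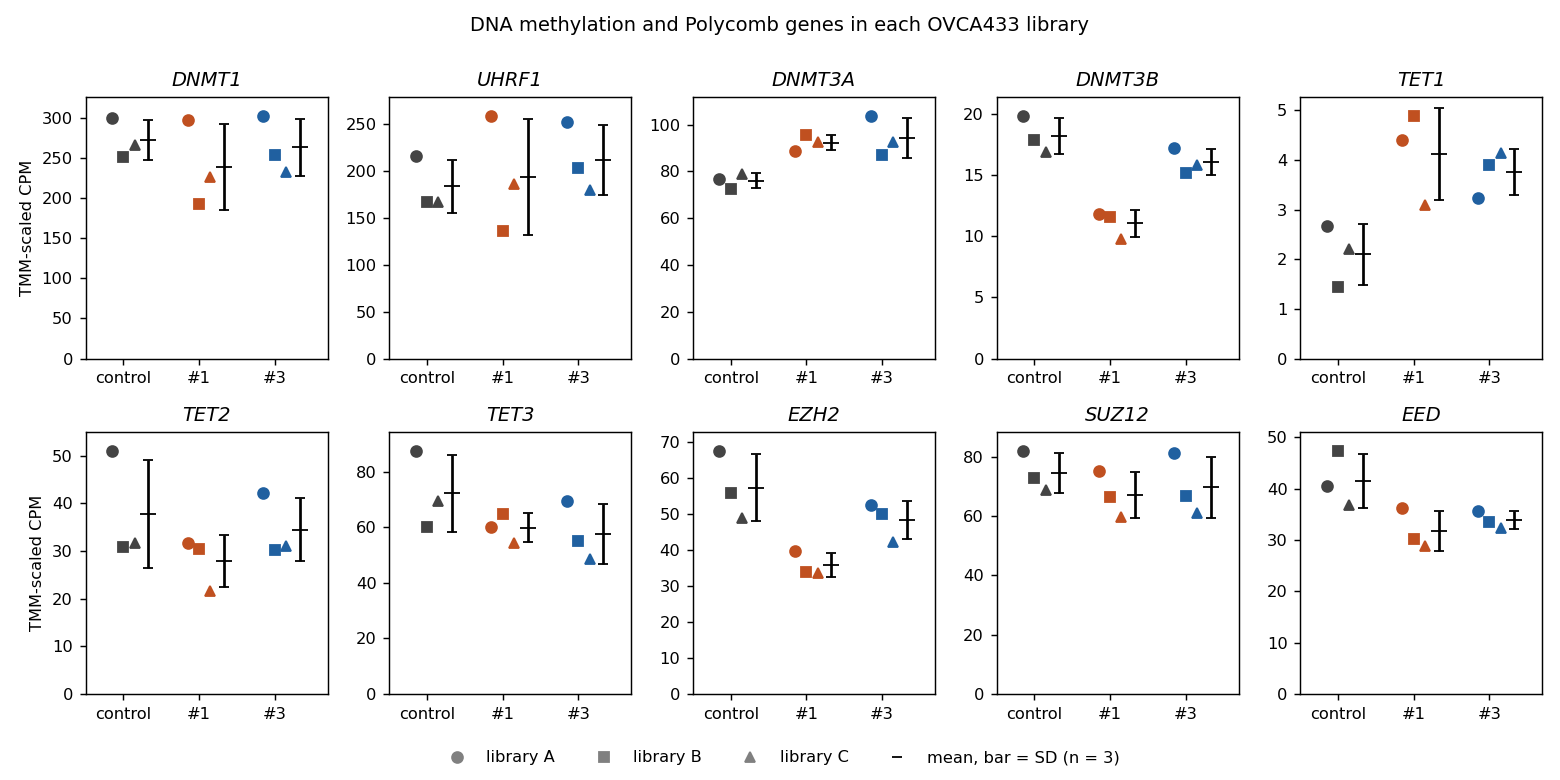
TMM-scaled CPM of each of the 10 genes in the 9 libraries, 1 panel per gene with its axis from 0; circles, squares and triangles are libraries A, B and C, and the bars give the mean and SD of 3 libraries. All 6 knockdown libraries lie above the control libraries for DNMT3A and TET1 and below them for EED, and the 3 hairpin #1 libraries stand below all others for DNMT3B and EZH2.

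Of the demethylating enzymes, TET1 rose and the others did not pass. TET1 (ENSG00000138336, chromosome 10, 68560656 to 68694482) was at 2.663, 1.443 and 2.198 CPM in control, 4.392, 4.884 and 3.087 under hairpin #1 and 3.236, 3.895 and 4.143 under hairpin #3, with all 6 knockdown libraries above all control libraries. This was the largest change of the 10 genes, 1.871-fold pooled (log2 0.90, SE 0.237, adjusted p = 0.0118), 0.96 on the log2 scale under hairpin #1 (adjusted p = 0.00958) and 0.84 under hairpin #3 (adjusted p = 0.0234). The counts behind it were low, and without control B, the lowest library, the pooled value was 0.69 (adjusted p = 0.0701) and those of hairpins #1 and #3 were 0.75 (adjusted p = 0.0511) and 0.62 (adjusted p = 0.110). The value of hairpin #3 also missed the threshold without control C (adjusted p = 0.053), hairpin #3 B (adjusted p = 0.0703) or hairpin #3 C (adjusted p = 0.0769). TET1 made up 2.669% ± 0.396 of the summed CPM per kilobase of the 3 TET genes in control, 6.268% ± 0.722 under hairpin #1 and 5.797% ± 1.56 under hairpin #3. TET3 made up 70.29%, 69.74% and 65.16% of that sum in the 3 groups, and TET2 27.04%, 23.99% and 29.05%.

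TET3 (ENSG00000187605, chromosome 2, 73986404 to 74108176), the most abundant TET transcript, was at 87.31, 60.02 and 69.39 CPM in control, 60.23, 64.96 and 54.41 under hairpin #1 and 69.44, 55.03 and 48.47 under hairpin #3. All 6 knockdown libraries lay below the control mean, but only 3 lay below all control libraries, and the pooled change on the log2 scale was -0.30 (SE 0.135, adjusted p = 0.114). With hairpin #3 the value of -0.33 (adjusted p = 0.119) became -0.49 without hairpin #3 A and then passed (adjusted p = 0.0252). The hairpin #3 value of TET3 also passed in a model with a term for the library letters. TET2 (ENSG00000168769, chromosome 4, 105145875 to 105279816) was at 50.89, 30.91 and 31.64 CPM in control, 31.59, 30.37 and 21.69 under hairpin #1 and 42.19, 30.23 and 31.07 under hairpin #3. Its control mean of 37.81 ± 11.3 CPM rested on library A, and the pooled log2 fold change of -0.28 did not pass (95% interval -0.71 to 0.15, adjusted p = 0.311). Under hairpin #1 the value of TET2 was -0.44 (adjusted p = 0.109), and it passed in 2 of 17 alternatives.

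Within PRC2, the catalytic subunit EZH2 and EED, the subunit that binds methylated H3K27, fell, and the scaffold SUZ12 did not pass. EZH2 (ENSG00000106462, chromosome 7, 148807383 to 148884321) was at 67.41, 55.79 and 48.94 CPM in control, 39.72, 34.03 and 33.61 under hairpin #1 and 52.43, 49.93 and 42.3 under hairpin #3. Hairpin #1 libraries lay below all others, and hairpin #3 libraries overlapped the control libraries. The fall under hairpin #1 was 1.603-fold (log2 -0.68, SE 0.131, adjusted p = 0.00108) and passed in all 17 alternatives, while the value under hairpin #3 was -0.25 (SE 0.13, adjusted p = 0.160). With a term for the library letters in the edgeR model, the hairpin #3 value of EZH2 passed (adjusted p = 0.0197). The pooled fall of EZH2 (log2 -0.45, adjusted p = 0.0432) depended on the model and the libraries. Its adjusted p was 0.00438 in the model with 3 separate groups. It was 0.0516 with library totals in place of TMM, and 0.207, 0.0959, 0.0644, 0.0744, 0.0738 and 0.0621 without control A, control B, hairpin #1 A, hairpin #1 B, hairpin #1 C and hairpin #3 C.

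EED (ENSG00000074266, chromosome 11, 86244544 to 86278813) was at 40.53, 47.28 and 36.89 CPM in control, 36.26, 30.22 and 28.85 under hairpin #1 and 35.72, 33.58 and 32.41 under hairpin #3. Each of the 6 knockdown libraries was under the lowest control library, the nearest by less than 1 CPM. EED fell 1.266-fold pooled (log2 -0.34, SE 0.107, adjusted p = 0.0287) and 1.308-fold under hairpin #1 (log2 -0.39, adjusted p = 0.0216), and its value under hairpin #3 was -0.29 (adjusted p = 0.0766). The pooled call was lost without control A (adjusted p = 0.0608), control B (adjusted p = 0.170) or hairpin #1 C (adjusted p = 0.0511), and that of hairpin #1 without control B (adjusted p = 0.113), hairpin #1 B (adjusted p = 0.0703) or hairpin #1 C (adjusted p = 0.0852). With hairpin #3 EED passed without control C (adjusted p = 0.0458) or hairpin #1 A (adjusted p = 0.0479), and with a term for the library letters. SUZ12 (ENSG00000178691, chromosome 17, 31937018 to 32001045) was at 68.67 to 81.84 CPM in control, 59.64 to 75.19 under hairpin #1 and 60.94 to 81.21 under hairpin #3, and its groups overlapped (pooled log2 fold change -0.12, 95% interval -0.36 to 0.12, adjusted p = 0.440). Its pseudogene SUZ12P1 held 143 to 250 counts per library, compared with 1220 to 1690 for SUZ12, and reads of the 2 copies may have been split. EZH2 made up 42.18% ± 2.38 of the summed CPM per kilobase of the 3 core subunits in control, 34.92% ± 0.932 under hairpin #1 and 40.81% ± 1.37 under hairpin #3. Of the paralog pair EZH1 and EZH2, EZH2 made up 90.27% ± 1.87, 81.73% ± 3.64 and 86.33% ± 2.64 of the sum per kilobase. EZH1 was at 9.369 ± 0.524 CPM in control and 12.26 ± 1.93 and 11.66 ± 1.42 with the hairpins (pooled log2 fold change 0.35, adjusted p = 0.0681).

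Compared directly, hairpins #3 and #1 differed in DNMT3B alone among the 10 genes (11.6% of tested genes were called, 6.33% higher and 5.3% lower under hairpin #3, and 3.93% at 2-fold or more). DNMT3B was 1.455-fold higher under hairpin #3 (log2 0.54, SE 0.126, adjusted p = 0.0135), and the call was lost without hairpin #1 C (log2 0.46, adjusted p = 0.0617). EZH2 was next (log2 0.43, 95% interval 0.14 to 0.71, adjusted p = 0.0524), and it passed in 10 of 17 alternatives, among them the fits without control A (adjusted p = 0.0283), control C (adjusted p = 0.0434), hairpin #1 A (adjusted p = 0.0358) or hairpin #3 C (adjusted p = 0.0434). The other 8 genes had adjusted p values of 0.404 or more. Their 95% intervals reached as far as 0.75 on the log2 scale for TET2 and -0.66 for TET1, so differences of up to that size between hairpins are not excluded by these libraries.

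The genes around DNMT3B and TET2 were also lower under hairpin #1. Over the 50 nearest genes with at least 10 CPM on chromosome 20, the median log2 fold change was -0.37 under hairpin #1 and -0.05 under hairpin #3, and 0.35 between hairpins. The value of DNMT3B (-0.72) stood 0.35 below that median under hairpin #1, and 6 of the 50 neighbours had moved as far or farther. Around TET2 on chromosome 4 the median was -0.36 under hairpin #1 and 0.04 under hairpin #3, beside -0.44 and -0.13 for TET2 itself. The 2 values were near each other under hairpin #1 and of opposite sign under hairpin #3. The neighbours of EZH2 on chromosome 7 were at -0.03 under hairpin #1 and 0.03 between hairpins, where 5 and 1 of 50 reached the value of EZH2. The neighbours of EED had a median of -0.14 pooled, beside -0.34 for EED. Their median was -0.05 under hairpin #1 and -0.19 under hairpin #3, beside -0.39 and -0.29 for EED itself. Under hairpin #3, 20 of the 50 neighbours of EED had fallen as far or farther. Around the other members the medians lay between -0.03 and 0.11 in the comparisons with control. The part of these regional shifts in the values of DNMT3B, TET2 and EED was not tested.

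**Figure D4:**
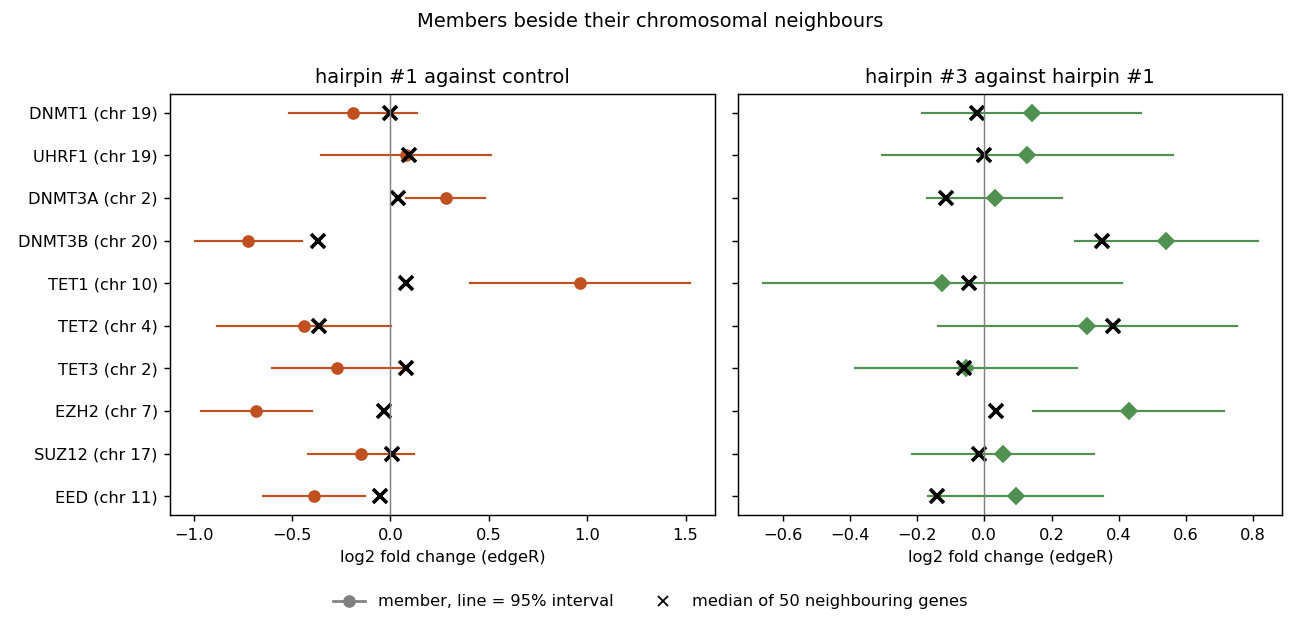
log2 fold change of each member (point, with its 95% interval) beside the median of its 50 nearest genes of at least 10 CPM on the same chromosome (cross), for hairpin #1 against control and hairpin #3 against hairpin #1. The crosses of DNMT3B and TET2 are displaced towards the members (-0.37 and -0.36 in the left panel, 0.35 and 0.38 in the right), and that of EZH2 lies near 0.

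Among 16 accessory, removal and repair genes of DNA methylation, 15 were tested and 1 changed in the pooled comparison, GADD45A, a stress-induced gene linked to demethylation (log2 -0.49, adjusted p = 0.00357; median of the list -0.09). DNMT3L, the cofactor of the de novo enzymes, had at most 2 counts in any library, and HELLS and CDCA7, a chromatin remodeler and its partner, did not pass (log2 -0.16 and 0.18). IDH1, which makes the TET cofactor 2-oxoglutarate, was at 152.6 ± 8.01 CPM in control and 157.5 ± 3.63 under hairpin #1 but fell to 84.11 ± 6.04 under hairpin #3 (log2 -0.86, adjusted p = 6.65e-06), a difference between hairpins of -0.91 (adjusted p = 3.7e-05). IDH1 was singled out after its values were seen. Of 7 readers of methylated DNA only ZBTB38 changed (log2 0.55, adjusted p = 0.00041), and the list had a median of 0.10.

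The other Polycomb genes were counted in the same way. Of 10 tested accessory PRC2 subunits, 1 rose and none fell in the pooled comparison (median 0.15, where 15.9% of tested genes were called higher and 17% lower). This was the Polycomb-like subunit PHF19 (log2 0.40, adjusted p = 0.0316), which passed under hairpin #3 (log2 0.55, adjusted p = 0.00224) and not under hairpin #1 (log2 0.24, adjusted p = 0.116). Under hairpin #1 the 1 subunit called was MTF2, another Polycomb-like subunit (log2 0.26, adjusted p = 0.0476). Of 23 PRC1 subunits, 4 rose and none fell in the pooled comparison (median 0.12), a share near that of all tested genes called higher: SCML2 (log2 1.27, adjusted p = 0.000323), the H3K27me3-binding subunit CBX2 (log2 0.79, adjusted p = 0.0286), BCOR (log2 0.54, adjusted p = 0.00211) and PHC1 (log2 0.48, adjusted p = 0.00909). CBX2 was at 35.46 ± 6.86 CPM in control, 77.62 ± 10.6 under hairpin #1 and 45.3 ± 7.35 under hairpin #3, and differed between hairpins (log2 -0.78, adjusted p = 0.00546). With each hairpin alone 4 PRC1 subunits rose and 1 fell, PCGF3 under hairpin #1 (log2 -0.42, adjusted p = 0.00781) and RING1 under hairpin #3 (log2 -0.41, adjusted p = 0.022). MTF2, PCGF3 and RING1 were named after their values were seen. Of 7 tested genes that oppose Polycomb, BAP1 (log2 0.36, adjusted p = 0.0055) and FOXK1 (log2 0.27, adjusted p = 0.0273) rose and FOXK2 fell (log2 -0.26, adjusted p = 0.0295), while the H3K27 demethylases KDM6A (log2 -0.01) and KDM6B (log2 -0.34) did not pass.

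DNMT1, UHRF1 and EZH2 are known to be high in dividing cells, so S phase and proliferation genes were set beside them. Of 20 such genes, 4 fell and none rose in the pooled comparison (median -0.21), where 17% of all tested genes were called lower: CCNE1 (log2 -0.99, adjusted p = 0.000318), CDC6 (log2 -0.62, adjusted p = 0.0149), RRM2 (log2 -0.48, adjusted p = 0.0149) and PCNA (log2 -0.43, adjusted p = 0.0497). With hairpin #1, 7 of the 20 fell (median -0.28), beside 19.7% of tested genes, and under hairpin #3, 3 fell (median -0.15), beside 18.1%. E2F1 was at 140.9 ± 13.1 CPM in control, 86.61 ± 22.1 under hairpin #1 and 148.1 ± 22.9 under hairpin #3, and was the only one of the 20 to differ between hairpins (log2 0.77, adjusted p = 0.0095). The summed level of the list was 3311 to 4002 CPM in control, 2706 to 3864 under hairpin #1 and 2850 to 3818 under hairpin #3. PCNA and E2F1 lie on chromosome 20, E2F1 within the span of the neighbours of DNMT3B (median -0.37 under hairpin #1 and 0.35 between hairpins). The part of regional shifts in the values of PCNA and E2F1 was not tested. Neither was the part of proliferation in the values of EZH2. A difference between libraries also ran across groups: library A was the highest of its group in all 3 groups for 6 of the 10 members (DNMT1, UHRF1, DNMT3B, TET2, EZH2 and SUZ12), or 60%, compared with 16.01% of tested genes, and it was the lowest in all 3 for none, compared with 15.45%. With only libraries B and C of each group, an alternative chosen after seeing the data, TET1 and EED passed in the pooled comparison and DNMT3A and EZH2 did not (adjusted p = 0.050 and 0.137). In the same libraries 6 members passed under hairpin #1 (DNMT1 in addition to the 5), 3 under hairpin #3 (TET1, TET3 and EED) and 2 between hairpins (DNMT3B and EZH2). Of all tested genes, 26.7% passed in that pooled fit, 40.8% under hairpin #1, 37.3% under hairpin #3 and 16.8% between hairpins.

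The epithelial genes whose silencing raised the question changed on another scale than the enzymes. All 15 of a list of epithelial genes that are known to be methylated or bound by Polycomb in mesenchymal cells, chosen with these falls already known, fell at least 2-fold, with a median log2 fold change of -6.51, or -6.45 with RAB25 and OVOL1, which had at most 3 counts in every knockdown library, set to their bounds. CDH1, the epithelial cadherin, went from 275.3 ± 5.48 CPM to 0.112 ± 0.0816 under hairpin #1 and 0.1484 ± 0.183 under hairpin #3, ESRP1, an epithelial splicing factor, from 172.2 ± 11.5 to 0.0623 ± 0.108 and 0.03496 ± 0.0309, and ST14, a membrane protease, from 406.4 ± 21.1 to 0.112 ± 0.0816 and 0.3081 ± 0.195. The largest log2 fold change of a member in the 4 comparisons was 0.96. Of 20 germline and cancer-testis genes that promoter methylation commonly keeps silent, 17 had at most 3 counts in every one of the 9 libraries, and the 1 that could be tested did not pass (log2 -0.32). The summed level of these 20 genes was 0.7963 to 1.481 CPM in control and 0.5596 to 1.243 CPM in knockdown libraries.

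Imprinted genes, whose parental alleles differ in methylation, moved in both directions. Of 15 tested, 5 rose and 4 fell in the pooled comparison (median -0.05), where 15.9% and 17% of tested genes did so. GRB10 went from 4.579 ± 0.852 CPM to 42.04 ± 2.67 under hairpin #1 and 46.61 ± 5.35 under hairpin #3 (pooled log2 3.27, adjusted p = 1.22e-08), CDKN1C from 3.174 ± 0.882 to 9.872 ± 2.07 and 15.3 ± 1.15 (log2 1.99, adjusted p = 0.000132) and the noncoding KCNQ1OT1 from 6.548 ± 1.49 to 16.12 ± 2.64 and 14.39 ± 1.32 (log2 1.22, adjusted p = 0.000197). IGF2, at 0 or 1 count in each control library, reached 1.963 to 5.647 CPM under hairpin #1 and 9.768 to 29.78 under hairpin #3, at least 86-fold higher in the knockdown arm than 3 counts per control library. NDN went the other way, from 23.53 ± 1.52 CPM to 0.9013 ± 0.385 and 0.01961 ± 0.034 (adjusted p = 2.09e-05).

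By the correlation of log2 CPM over the 9 libraries, the genes most like each of the 5 members that changed under hairpin #1, among 9692 tested genes (9693 for TET1) of at least 10 CPM, were as follows. DNMT3A was closest to ORAI2 (Pearson r = 0.985), SLC4A2 and CHD4, and DNMT3B to RRM2B (0.986), ZNF252P and UBA6. TET1 was closest to NBPF26 (0.956), HEATR6 and LRIG3, EZH2 to MCM8 (0.984), MAP9 and PRELID3B, and EED to NSMCE2 (0.973), FAM111A and AKIRIN1. Of the members that did not pass with any hairpin, UHRF1 was closest to the replicative helicase subunit MCM3 (0.978), DNMT1 to EIF4H (0.977), SUZ12 to ZHX1 (0.986), TET2 to ZBTB11 (0.968) and TET3 to BTBD7 (0.942). The 9 points share their groups and their letters, so these values are given as a description. Genes in regions that shifted with a hairpin, as around DNMT3B and TET2, carry that shift into these correlations. The positions of the genes named were not examined, and shared regulation was not tested.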

How the data were processed

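Poly(A)-selected, non-directional libraries of 9 OVCA433 cultures were sequenced. The submitters' processing notes name HISAT2 2.0.5, featureCounts 1.5.0-p3 and build hg38, and the authors deposited raw read counts per gene, neither normalized nor filtered. The control is called an empty vector in 1 place of the study and a scrambled hairpin in another. Reads from exon bases shared by 2 genes cannot be told apart. S1PR2 shares 0.85% of the exon bases of DNMT1 and MIR6755 shares 0.94% of those of EED, both on the strand of the member. No other member shares exons in GENCODE 29. The gene length used per kilobase is the deposited one, which equals the merged exons.

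Genes were kept by filterByExpr (minimum count 10, total 15) and tested with edgeR 4.0.16 in R 4.3.3 (quasi-likelihood F test, TMM, Benjamini-Hochberg over 15975 genes, 2-sided), changed at adjusted p under 0.05. The pooled comparison used a 2-arm model as in the study, the others a 3-group model. DESeq2 1.42.0 was an alternative. The fit was tested on simulated data. A gene at 3 counts or fewer in every library of an arm was taken as at the floor; floors and counts cover counting error only. From each list, at most 5 changed genes averaging 1 CPM or more were named by largest pooled change, and EZH1, DNMT3L, HELLS, CDCA7, IDH1, KDM6A, KDM6B and E2F1 were added after their values were seen. The members and lists were chosen with earlier results of these data known. Alternatives were other filters, normalizations, models and thresholds, a replicate block, and each library left out.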

Additional observations from a re-analysis of the deposited data

Results flagged for a closer look

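DNMT3B was flagged because its effect differed between the 2 hairpins under a direct test: it was higher with hairpin #3 than with hairpin #1 by 0.54 on the log2 scale (SE 0.126, edgeR adjusted p = 0.0135), with all 3 hairpin #3 libraries (15.2 to 17.24 CPM) above all 3 hairpin #1 libraries (9.818 to 11.82 CPM). The median of its 50 neighbours on chromosome 20 differed in the same direction by 0.35. No library stood apart from the other knockdown libraries for any member by Dixon's criterion over the arm of 6. That arm mixes both hairpins, so a library apart within its own hairpin could be missed, and the control libraries are not covered.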

How the results depend on the processing

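Over 17 alternatives per comparison, 154 of 170 fold changes of members kept their direction and their side of the threshold in the pooled comparison, 154 of 170 with hairpin #1, 151 of 170 with hairpin #3 and 148 of 170 between hairpins, and no called value reversed. The number of members called moved as follows. A model with 3 separate groups called 5 pooled (DNMT3B in addition, adjusted p = 0.00396), where it called 40.1% of tested genes. An adjusted p under 0.01 left 0 pooled, 3 with hairpin #1 (DNMT3B, TET1 and EZH2), 0 with hairpin #3 and 0 between hairpins, and a 2-fold threshold left 0 in each. With only libraries B and C, 2 were called pooled and 2 between hairpins, beside 26.7% and 16.8% of tested genes. Between hairpins 2 were called (DNMT3B and EZH2) without a filter on low counts, with a mean of at least 1 CPM, with only the groups compared and with the DESeq2 Wald test. These fits called 7.5%, 12.9%, 10.2% and 12.6% of tested genes. With each library left out in turn, 0 to 5 members were called pooled, 2 to 6 with hairpin #1, 0 to 3 with hairpin #3 and 0 to 2 between hairpins. The shares of tested genes called in these fits were 22.9% to 32.3%, 29.8% to 38.4%, 27.3% to 36% and 6.39% to 12%. The causes were not tested.

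The replicate block gave 4 members pooled, 6 with hairpin #1 (TET2 in addition), 5 with hairpin #3 (TET3, EZH2 and EED in addition) and 2 between hairpins (EZH2 in addition), and raised the calls among all genes between hairpins from 1857 to 3689. It called 36.1%, 48.8%, 45.6% and 23.1% of tested genes in these 4 comparisons. Deviations from group means correlated at 0.0469 to 0.429 between libraries of the same letter and at -0.397 to 0.157 otherwise. Control B correlated better with hairpin #1 C (0.157) than with hairpin #1 B (0.0469), and the main tests did not take the letters as a pairing. Deviations from the mean of 3 libraries cancel out, so an A library that stands apart makes those of B and C alike. This check therefore cannot tell whether the letters are a pairing. The A libraries, however, correlated at 0.399 to 0.429 across groups and negatively with every B and C library of another group. The main tests leave this difference of library A in the spread. The block called TET3, EZH2 and EED with hairpin #3, TET2 with hairpin #1 and EZH2 between hairpins, which the main tests did not. Over the 17 alternatives these values passed in 4, 1, 4, 2 and 10, so only that of EZH2 with hairpin #3 passed with the block alone.

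With each library left out in turn, fold changes that reversed, none of them called, ranged from -0.19 to 0.27 for UHRF1 with hairpin #1, from -0.165 to 0.0322 for DNMT1 and -0.31 to 0.14 for TET2 with hairpin #3, and between hairpins from -0.0415 to 0.0864 for DNMT3A, -0.297 to 0.0164 for TET1, -0.0682 to 0.388 for UHRF1, -0.211 to 0.0626 for TET3 and -0.0691 to 0.15 for SUZ12. With only libraries B and C, UHRF1 with hairpin #1 was at -0.0426, and between hairpins DNMT3A was at -0.0672 and TET1 at 0.0251. TET1, at 29 to 96 counts per library, is the member most limited by depth.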
